A study of Mus musculus with 52 samples.

Results

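The calcium release channels of the endoplasmic reticulum are encoded by 6 genes in the mouse: the ryanodine receptor genes Ryr1, Ryr2 and Ryr3, and the inositol trisphosphate (IP3) receptor genes Itpr1, Itpr2 and Itpr3. They were taken by name, as the rows of the count table whose Ensembl identifiers map to those symbols, which gave 6 of 46071 genes. Ryr3 was chosen by its measured difference between insulin and saline in the hypothalamus of these same libraries, where it was higher under insulin, so its hypothalamic values against saline describe the choice and carry no test. The other 5 genes complete the family. All 6 passed the filter on low counts in every comparison.

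The libraries came from 3 regions of the brain of male C57BL/6J mice aged 3 months: the hypothalamus, the hippocampus and the nucleus accumbens. The mice carried a catheter in the right internal jugular vein and were conscious during a clamp of 3 h. During it they received saline (called basal in the labels), insulin at 4 mU/kg/min (the low rate) or insulin at 12 mU/kg/min (the high rate), while glucose was infused to adjust their blood glucose. No allele or transgene was used. The hypothalamus had 5 saline, 6 low-rate and 5 high-rate libraries, and the other regions had 6 of each, 52 in all. The labels do not tie libraries of different regions to an animal or state that each library is 1 mouse, so the p-values given here rest on library-to-library spread, part of which may be technical.

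Ryanodine receptors and IP3 receptors are very large tetrameric channels in the membrane of the endoplasmic or sarcoplasmic reticulum, and both let stored calcium out into the cytosol. Ryanodine receptors open on cytosolic calcium itself, or, in skeletal muscle, through contact with the voltage sensor of the surface membrane. IP3 receptors need IP3, which phospholipase C makes when Gq-coupled receptors are active, together with calcium. Ryr1 is the skeletal muscle channel and is also made in Purkinje cells and other neurons, Ryr2 is the cardiac channel and a main neuronal form, and Ryr3 is made at lower levels in many tissues, brain included. Itpr1 is the main neuronal IP3 receptor, while Itpr2 and Itpr3 are better known from glia and from peripheral secretory and other non-neuronal cells.

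The genes are related but distinct in sequence, which matters for reads of 50 bases. The coding stretch around the selectivity filter of the pore is shown here for each gene. It was read 5′ to 3′ on the coding strand from the GENCODE transcripts (GRCm38). Capitals mark 6 glycine-rich filter codons in the ryanodine receptor genes and 5 in the IP3 receptor genes. In the IP3 receptor genes the lower-case codon just before the capitals also encodes glycine and belongs to the same run.
Ryr1, chr7:29005577-29005636, minus strand, exon 105 of 109: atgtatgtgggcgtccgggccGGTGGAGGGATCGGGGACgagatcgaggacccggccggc
Ryr2, chr13:11560606-11560665, minus strand, exon 101 of 105: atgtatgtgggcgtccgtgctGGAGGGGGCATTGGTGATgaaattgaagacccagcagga
Ryr3, chr2:112636610-112636669, minus strand, exon 100 of 104: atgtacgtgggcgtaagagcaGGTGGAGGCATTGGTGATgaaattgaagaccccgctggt
Itpr1, chr6:108518770-108518826, plus strand, exon 58 of 62: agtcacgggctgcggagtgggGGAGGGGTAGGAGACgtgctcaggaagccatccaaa
Itpr2, chr6:146158890-146158946, minus strand, exon 53 of 57: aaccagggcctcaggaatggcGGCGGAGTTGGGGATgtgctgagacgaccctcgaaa
Itpr3, chr17:27118613-27118669, plus strand, exon 54 of 58: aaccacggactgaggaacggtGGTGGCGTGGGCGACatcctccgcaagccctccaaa

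Even in this conserved stretch the copies could be told apart. Ryr2 and Ryr3 matched at 50 of 60 bases (83.3%), Ryr1 and Ryr2 at 46 and Ryr1 and Ryr3 at 45. Among the IP3 receptors 37 to 41 of 57 bases were identical. Over all annotated transcripts, no word of 50 bases was shared between any 2 of the 6 genes. Words shared with any other gene made up 4.27% of the words of Ryr3, 2.68% of those of Ryr1 and at most 1.51% of those of the others.

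In GRCm38 the genes lie at chr7:29003344-29125179 (Ryr1, minus strand), chr13:11553102-12106945 (Ryr2, minus), chr2:112631355-113217096 (Ryr3, minus), chr6:108213096-108551109 (Itpr1, plus), chr6:146108299-146502223 (Itpr2, minus) and chr17:27057304-27122223 (Itpr3, plus). The GC content of their transcripts splits them across the families. It was 58.0% for Ryr1 and 57.5% for Itpr3, and between 49.0% and 49.6% for Ryr2, Ryr3, Itpr1 and Itpr2. The longest transcript of each gene exceeded that of at least 98.5% of genes.

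Library totals ran from 2453412 to 8279612 counts. The summed level of 8 hypothalamic genes was 78.1 to 1669 CPM (counts scaled to library size) in hypothalamic libraries and at most 63.3 CPM elsewhere. For 6 genes of striatal projection neurons it was 637 to 1599 CPM in the accumbens and at most 220 CPM elsewhere. The 7 hippocampal genes summed to 543 to 1288 CPM in the hippocampus and overlapped the accumbens, at 445 to 849 CPM. Of these 7, Wfs1 was higher in the accumbens, with a median of 626 CPM against 240 in the hippocampus. In 10 of the 52 libraries, genes with GC-rich transcripts stood high, with a Spearman correlation above 0.4 between a gene's deviation from its region mean and its transcript GC. These GC-leaning libraries included 3 of the 5 hypothalamic saline libraries and none of the 11 hypothalamic insulin libraries. Separately, 5 hypothalamic libraries, 3 at the low and 2 at the high rate, had less than 1 CPM of at least 1 of Hcrt, Pmch, Avp, Oxt and Pomc, and no saline library did. The libraries also fall into 3 ranges of the tag number in their titles, and the highest range alone holds all 3 infusions of the hypothalamus, with 3 libraries each. Hippocampal libraries varied in choroid plexus markers (60.8 to 6168 CPM summed over 5 genes) and accumbens libraries in cortical neuron markers (11.9 to 895 CPM over 5 genes).

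Under saline, the neuronal channels Ryr1, Ryr2 and Itpr1 were lowest in the hypothalamus, whereas Itpr2 and Itpr3 stood at like levels in the 3 regions. Ryr2 had 532 ± 107 CPM in the hippocampus (SD, n = 6), 205 ± 13.9 in the accumbens (n = 6) and 139 ± 49.6 in the hypothalamus (n = 5). The hippocampal libraries spanned 338 to 643 CPM with a median of 546, and all lay above the 6 accumbens libraries (184 to 219, median 210). The 5 hypothalamic libraries had 144, 101, 177, 193 and 76.4 CPM. They lay below every hippocampal library and overlapped the accumbens. Ryr2 was thus 3.84-fold lower in the hypothalamus than in the hippocampus (log2 -1.94, SE 0.20, edgeR quasi-likelihood test with Benjamini-Hochberg adjusted p = 1.35e-07) and 2.61-fold lower in the accumbens than in the hippocampus (log2 -1.38, SE 0.19, edgeR adjusted p = 6.49e-06). The accumbens was 1.47-fold above the hypothalamus (log2 0.56, SE 0.20, edgeR adjusted p = 0.0368). That last call did not hold without the GC-leaning libraries (log2 0.13, edgeR adjusted p = 0.583). It was also lost with the GC correlation or the tag range as a term, in the highest tag range alone, in a fit of all 52 libraries and when 7 of the 11 libraries were left out in turn.

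Itpr1 was the highest of the 6 genes per length in every region. It had 799 ± 70.9 CPM in the accumbens (705 to 883, median 799), 640 ± 98.4 in the hippocampus (508 to 762, median 635) and 209 ± 36.2 in the hypothalamus, where the libraries had 207, 202, 239, 243 and 153 CPM. Every hypothalamic library was below every library of the other regions. The hypothalamus was 3.06-fold below the hippocampus (log2 -1.61, SE 0.14, edgeR adjusted p = 1.03e-08) and the accumbens 3.8-fold above the hypothalamus (log2 1.93, SE 0.14, edgeR adjusted p = 3.76e-09). The accumbens and the hippocampus overlapped (log2 0.31, SE 0.13, edgeR adjusted p = 0.0734). That comparison passed with the GC correlation as a covariate (edgeR adjusted p = 0.0383) and without hippocampal saline library 4 or 5.

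Ryr1 had the same order of regions as Ryr2. It had 78.8 ± 12.7 CPM in the hippocampus (61.9 to 91.5, median 82), 50.7 ± 10.4 in the accumbens (38.7 to 65.6, median 49.8) and 14.5 ± 6.09 in the hypothalamus (20.9, 20.2, 14.8, 7.76 and 9.05). No hypothalamic library reached the lowest library of either other region. The hypothalamus was 5.30-fold below the hippocampus (log2 -2.41, SE 0.23, edgeR adjusted p = 3.43e-08), the accumbens was 3.38-fold above the hypothalamus (log2 1.76, SE 0.22, edgeR adjusted p = 7.90e-06) and 1.57-fold below the hippocampus (log2 -0.65, SE 0.20, edgeR adjusted p = 0.0171). Ryr1 is also abundant in skeletal muscle, and 6 muscle genes summed to at most 113 CPM in the saline hypothalamus, 37.5 in the saline hippocampus and 31.2 in the saline accumbens. The part of these transcripts in the Ryr1 level was not tested.

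Ryr3 alone among the ryanodine receptors was highest in the accumbens, with 160 ± 42 CPM (83.2 to 200, median 164) against 103 ± 11.3 in the hippocampus (90.8 to 121, median 102). The accumbens was 1.53-fold higher (log2 0.61, SE 0.17, edgeR adjusted p = 0.00892), and 5 of its 6 libraries lay above all hippocampal ones. The call was lost in a fit of all 52 libraries (log2 0.61, edgeR adjusted p = 0.0717). The saline hypothalamus had 39.7 ± 8.02 CPM, with libraries at 48.2, 39.8, 41.5, 42.3 and 26.5, all below every saline library of the other regions. Since these 5 libraries also entered the choice of Ryr3, their distance from the hippocampus (log2 -1.38, SE 0.19) and from the accumbens (log2 2.00, SE 0.19, accumbens minus hypothalamus) is given with no test.

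The other IP3 receptor genes differed little between regions. Itpr2 had 50.4 ± 6.09 CPM in the hypothalamus, 47.9 ± 3.66 in the hippocampus and 48.4 ± 7.37 in the accumbens, and Itpr3 had 7.60 ± 0.734, 7.59 ± 2.28 and 6.57 ± 2.84. The 3 regions overlapped for both genes. Their log2 differences lay between -0.23 and 0.07 in the 3 comparisons, with edgeR adjusted p-values from 0.537 to 0.989. Itpr3 was measured on 18 to 59 counts per saline library in the accumbens, so its spread is wide.

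Leaving out Ryr3 where the choice touched the hypothalamus, 3 of 5 genes were called between hypothalamus and hippocampus (Ryr1, Ryr2 and Itpr1, all lower in the hypothalamus) and 3 of 5 between accumbens and hypothalamus (the same 3, all higher in the accumbens). The Ryr2 call between accumbens and hypothalamus was lost without the GC-leaning libraries. In the remaining comparison 3 of 6 genes were called, with Ryr3 higher and Ryr1 and Ryr2 lower in the accumbens than in the hippocampus. Differences between regions were common in the table as a whole: 44.1%, 29% and 27.9% of the 14093 genes tested were called in the comparisons of hypothalamus with hippocampus, accumbens with hypothalamus and accumbens with hippocampus. In the first, 22.9% were higher and 21.1% lower in the hypothalamus. In the second, 13.9% were higher and 15.1% lower in the accumbens, and in the third 14.2% and 13.7%. In whole tissue, fewer cells of a type and less RNA per cell cannot be told apart. Of 5 neuron markers, 3 were called lower and 1 higher in the saline hypothalamus than in the hippocampus (median log2 -0.79). Their part in the differences of Ryr1, Ryr2 and Itpr1 was not tested.

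**Figure D1:**
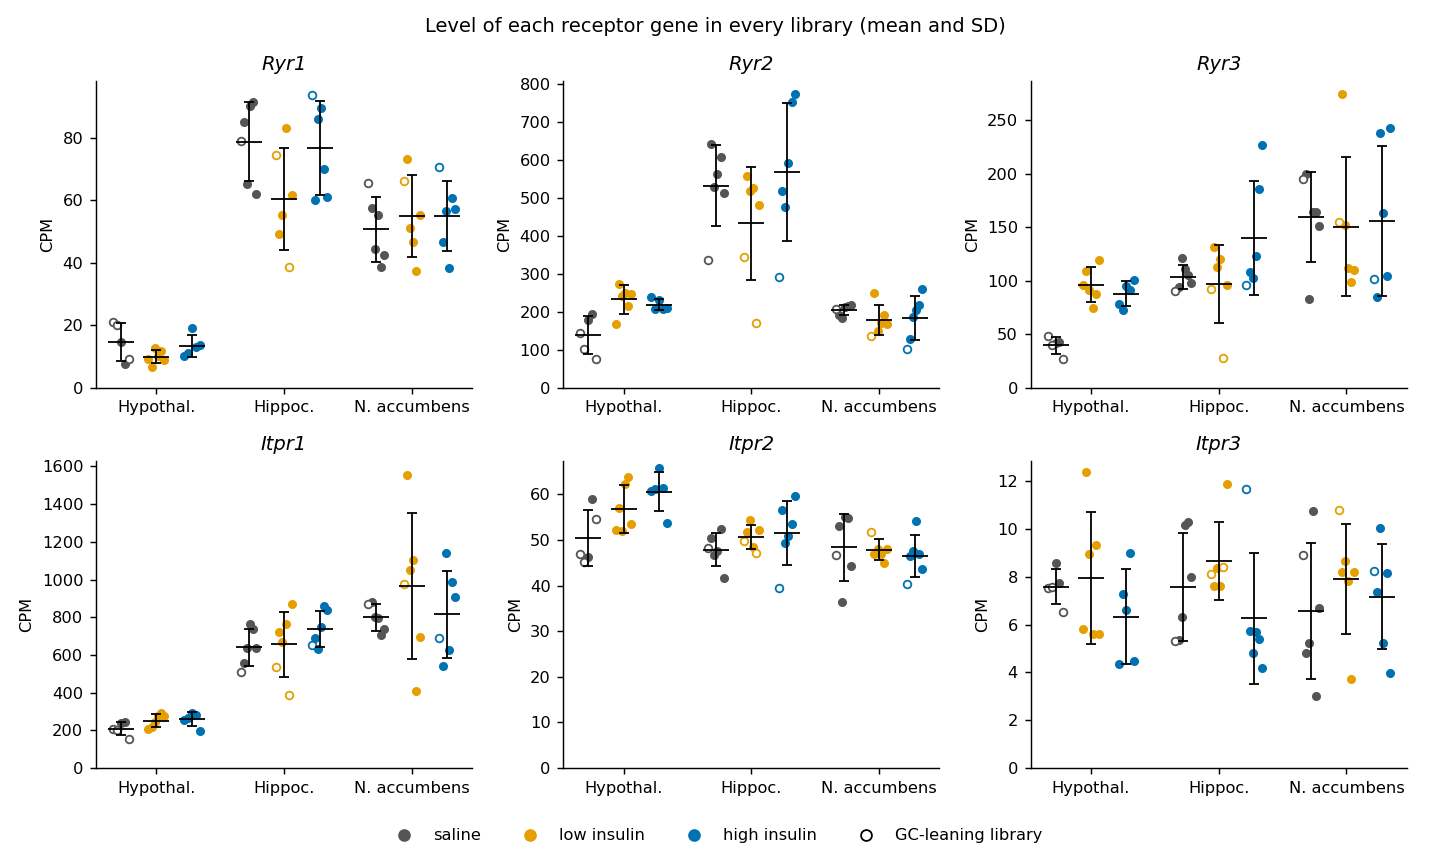
CPM of each receptor gene (y axis, linear from 0, a scale per panel) in every library, by region and infusion, with the mean and SD in black. Open points are the 10 GC-leaning libraries. Hypothalamic Ryr3 under saline (26.5 to 48.2 CPM) sits below every hypothalamic library under insulin (72.9 to 120 CPM).

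Per kilobase of exon, the make-up of each family differed between regions. In the saline hippocampus Ryr2 made up 66.6 ± 4.55% of the summed ryanodine receptor level, Ryr3 20.1 ± 2.95% and Ryr1 13.3 ± 2.64% (SD, n = 6). In the hypothalamus Ryr2 had 62.5 ± 7.53%, Ryr3 28.3 ± 3.91% and Ryr1 9.2 ± 3.89% (n = 5). The Ryr3 share was 24.0 to 32.1% there and 15.9 to 23.8% in the hippocampus, ranges that did not overlap with this length. With the longest transcript as the length they did overlap, at 18.6 to 26.0% and 12.2 to 18.9%. The hypothalamic saline values of Ryr3 also entered its choice. In the accumbens Ryr3 had 46.3 ± 6.51% and Ryr2 40.6 ± 5.9% (n = 6), ranges that overlapped between the genes. There the order turned with the longest transcript as the length (Ryr2 47.9%, Ryr3 39.3%). Among IP3 receptors Itpr1 held 91.6 ± 1.3% in the accumbens, 89.4 ± 1.11% in the hippocampus and 72.5 ± 4.1% in the hypothalamus. The hypothalamic share of Itpr2 was 22.1 ± 4.04% against 8.4 ± 1.36% in the hippocampus, beside a like Itpr2 level and a lower Itpr1 level. These shares were not tested.

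**Figure D2:**
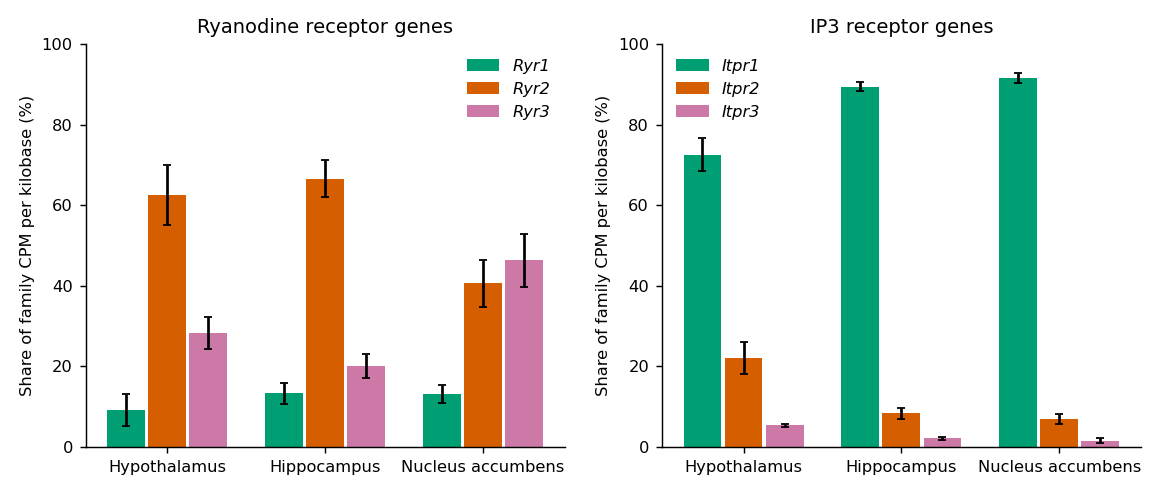
Share of each gene (y axis, %) in the summed CPM per kilobase of its family under saline, by region. Bars are means over 5 (hypothalamus) or 6 libraries and error bars are SD. Itpr1 holds 72.5% to 91.6% of the IP3 receptor level, while Ryr2 and Ryr3 have overlapping shares in the accumbens.

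Under insulin Ryr3, the gene chosen for it, was higher in the hypothalamus. Ryr3 had 48.2, 39.8, 41.5, 42.3 and 26.5 CPM in the 5 saline libraries. At the low rate it ran from 74.5 to 120 CPM over 6 libraries with a median of 94, and at the high rate the 5 libraries had 78.6, 72.9, 95.6, 91.4 and 101 CPM. All 11 insulin libraries lay above all saline libraries, and the insulin rates overlapped. The mean of 39.7 ± 8.02 CPM under saline stood against 96.4 ± 16 at the low rate, a 2.46-fold difference (log2 1.30, SE 0.16), and 87.9 ± 11.8 at the high rate, a 2.23-fold difference (log2 1.16, SE 0.16). These differences chose the gene and have no p here. The insulin rates differed from each other by log2 -0.14 (high minus low, SE 0.15, edgeR adjusted p = 1).

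Of the saline libraries, the 3 that leaned had 48.2, 39.8 and 26.5 CPM of Ryr3, the first being the highest and the last the lowest of the group. The 2 that did not lean had 41.5 and 42.3 CPM. In the hippocampus the library with the least Ryr3 was GC-leaning in each infusion, at 90.8, 28.2 and 96.2 CPM. In the accumbens none of the 3 GC-leaning libraries was the lowest of its group, at 195, 155 and 102 CPM. The part of the GC lean in the Ryr3 level was measured only through other settings. The hypothalamic log2 (low rate minus saline) was 1.21 without the GC-leaning libraries and 1.35 with the GC correlation as a covariate. All settings reuse the libraries by which Ryr3 was chosen, so their values describe the choice and carry no test. The log2 difference was between 1.08 and 1.37 at the low rate over the other settings shown in the plot of settings. Its lowest value came from leaving out the libraries that lack a hypothalamic peptide. All 5 of those libraries, at 95.6 to 120 CPM, lay above the 6 insulin libraries with all 5 peptides, at 72.9 to 91.6 CPM. The latter in turn lay above every saline library, which is the separation behind the choice of Ryr3. The split by peptides was seen after the values were known. Its part in the difference was measured only by leaving out the libraries that lack a peptide.

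Ryr2, the other abundant ryanodine receptor, was also higher, and it is the 1 member called. Its 5 saline libraries had 144, 101, 177, 193 and 76.4 CPM, the low-rate libraries 167 to 275 CPM with a median of 245, and the high-rate libraries 238, 208, 232, 208 and 210 CPM. All high-rate libraries and 5 of 6 low-rate libraries lay above the saline range. The low-rate mean was 233 ± 37.5 CPM against 139 ± 49.6 under saline, 1.70-fold higher (log2 0.76, SE 0.19, edgeR adjusted p = 0.0332). The high-rate mean was 219 ± 14.5 CPM, 1.59-fold higher, and did not pass (log2 0.67, SE 0.20, edgeR adjusted p = 0.127). DESeq2 called it at the high rate (adjusted p = 0.0472), and so did edgeR without saline library 3 or 4. Some cell type markers were called at the low rate, and none of the 13 marker lists held a call at the high rate. At the low rate 2 of 6 astrocyte markers and 1 of 4 thalamic markers were called higher. Of the astrocyte markers 3 of 6 had a log2 above 0 (median 0.1). At that rate 1 of 4 tested ependymal markers and 1 of 6 tested hippocampal markers were called lower. No marker of the other lists was called there, where 3.59% of all genes were called higher and 1.78% lower. None of 5 neuron markers was called. None of 8 hypothalamic markers was called either. Of those 8, only 1 had a log2 above 0 at the low rate (median -1.78) and 2 at the high rate (median -1.02). The summed astrocyte markers were 2011 to 3190 CPM under saline, 2660 to 3813 at the low rate and 3026 to 3628 at the high rate. Slc1a2 made up most of that sum, with a median of 2307 CPM beside 3318 for the sum over the 16 hypothalamic libraries. The summed neuron markers were 3087 to 4090, 3826 to 5199 and 3738 to 5190 CPM. The part of these cell type markers in the Ryr2 and Ryr3 values was not tested.

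Ryr2 also varied with the GC lean among the saline libraries. The 3 leaning libraries had 76.4 to 144 CPM, and the 2 others had 177 and 193 CPM, within the low-rate range of 167 to 275. Without the GC-leaning libraries the low-rate difference was log2 0.34 (edgeR adjusted p = 0.811), and with the GC correlation as a covariate 0.49 (edgeR adjusted p = 0.319). The call was also lost with the tag range as a term (0.64, edgeR adjusted p = 0.137), in the highest tag range alone (0.66, edgeR adjusted p = 0.647) and without the libraries that lack a peptide (0.76, edgeR adjusted p = 0.116). It was lost with a block for runs of neighbouring tags (0.63, edgeR adjusted p = 0.177) and with only the 2 groups fitted (0.76, edgeR adjusted p = 0.109). Leaving out 1 library at a time gave 0.61 to 0.92, with the call lost for saline libraries 1, 2 and 5 and low-rate libraries 2, 3, 4 and 6.

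**Figure D3:**
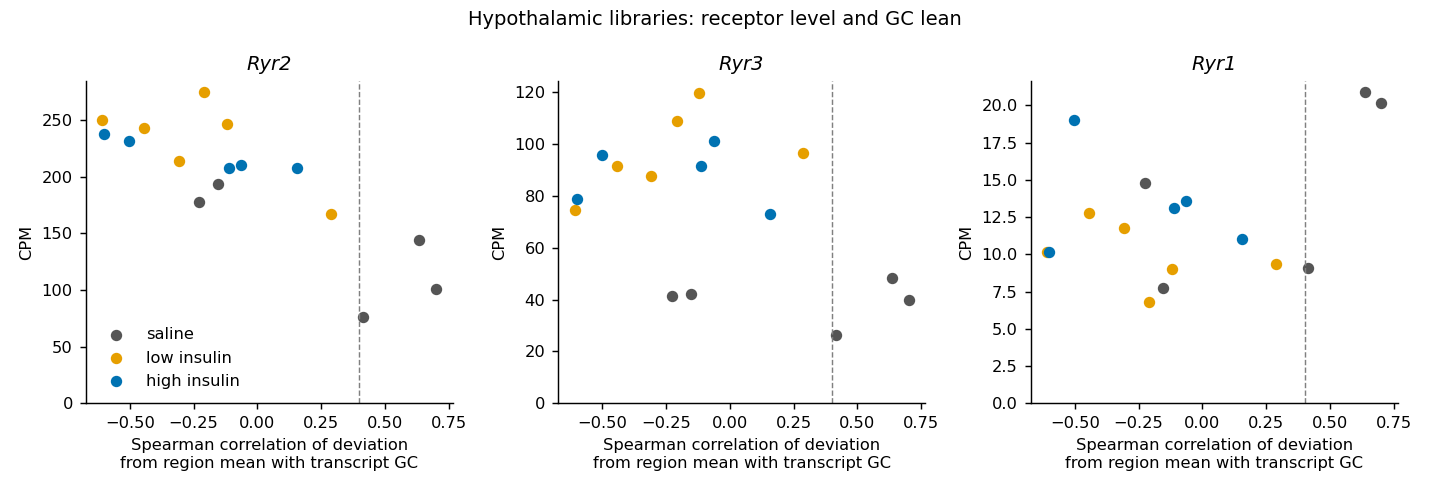
CPM of Ryr2, Ryr3 and Ryr1 (y axis, linear from 0) in the 16 hypothalamic libraries against each library's Spearman correlation between a gene's deviation from the region mean and its transcript GC (x axis). Points are libraries coloured by infusion and the dashed line marks 0.4. Right of the line lie 3 saline libraries, with Ryr2 at 76.4 to 144 CPM and Ryr3 at 26.5 to 48.2 CPM, and the other 2 saline libraries have 177 and 193 CPM of Ryr2 and 41.5 and 42.3 CPM of Ryr3.

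The GC-rich member Ryr1, with few counts in this region (20 to 152 per library under saline), had the opposite sign. The saline libraries had 20.9, 20.2, 14.8, 7.76 and 9.05 CPM, and the 2 highest were GC-leaning, as was the library at 9.05 CPM. The low-rate libraries had 6.79 to 12.8 CPM (median 9.74) and the high-rate libraries 10.1 to 19 CPM, both overlapping saline. The log2 difference was -0.56 (SE 0.24, edgeR adjusted p = 0.139) at the low rate and -0.14 (SE 0.25, edgeR adjusted p = 0.748) at the high rate. The low-rate difference passed without saline library 4 (edgeR adjusted p = 0.0402).

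The IP3 receptors of the hypothalamus were not called at either rate. Itpr1 had 209 ± 36.2 CPM under saline, 252 ± 34.8 at the low rate (209 to 293, median 258) and 259 ± 36.7 at the high rate (255, 268, 291, 283 and 198). The groups overlapped, with log2 0.28 (SE 0.13, edgeR adjusted p = 0.161) and 0.32 (SE 0.14, edgeR adjusted p = 0.183). Itpr2 had 50.4 ± 6.09, 56.8 ± 5.2 and 60.6 ± 4.34 CPM, with log2 0.19 (SE 0.10, edgeR adjusted p = 0.22) and 0.28 (SE 0.11, edgeR adjusted p = 0.16). At the high rate 4 of 5 Itpr2 libraries lay above every saline library, and without saline library 4 the difference passed (edgeR adjusted p = 0.0499). Itpr3 had 7.60 ± 0.734, 7.95 ± 2.76 and 6.34 ± 1.98 CPM, and its log2 differences of 0.08 and -0.25 had standard errors of 0.23 and 0.25.

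Calls in the hypothalamus were read beside those over the whole table. At the low rate 1 of the 5 genes other than Ryr3 was called, where 5.38% of 14139 genes were, 3.59% higher and 1.78% lower. An unadjusted p under 0.05 was reached by 3 of the 5 (Ryr1, Ryr2 and Itpr1) and by 4221 of the 14139 genes. At the high rate none of the 5 was called by edgeR, where 0.184% of all genes were, 0.177% higher and 0.00707% lower. Of the 5, 3 had an unadjusted p under 0.05 at the high rate, as did 3406 of the 14139 genes. No gene was called between the insulin rates, where 199 of 14139 had an unadjusted p under 0.05 and DESeq2 called 0.

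**Figure D4:**
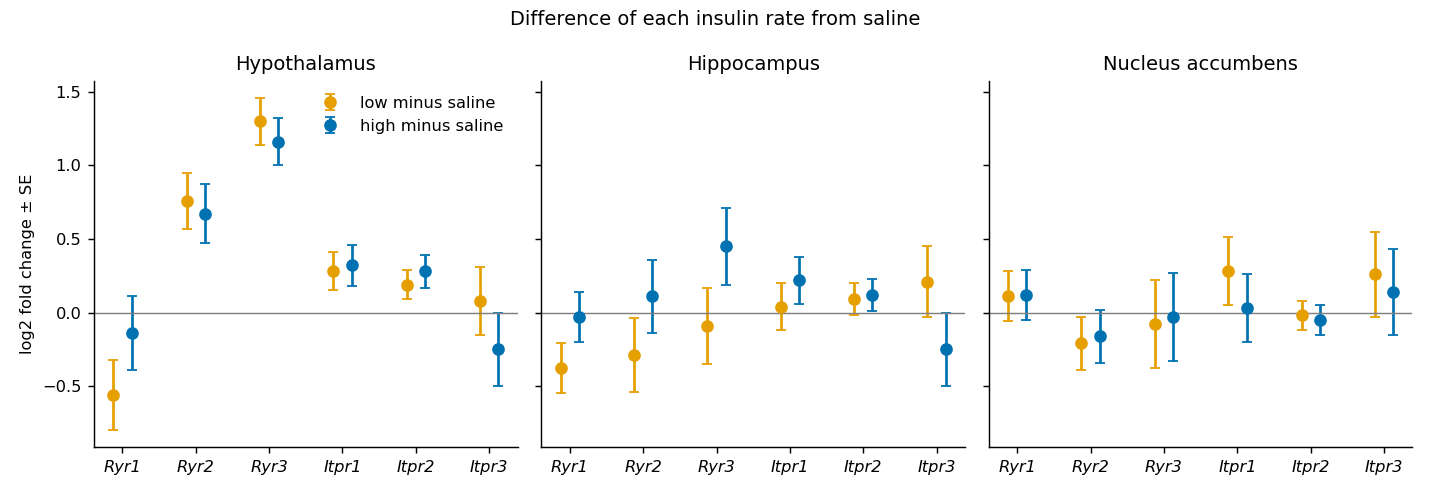
log2 fold change from saline (y axis, with standard errors from edgeR) of each gene at the low and the high insulin rate, in the 3 regions. Ryr3 in the hypothalamus, at 1.30 and 1.16, was the value by which the gene was picked, and in the hippocampus and accumbens the 2 rates scatter around 0.

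In the hippocampus no gene of the family was called at either rate, and edgeR called none of 13515 genes (0%) in the fit of that region. In the fit of all 52 libraries edgeR called 101 genes at the low rate, all higher, and 0 at the high rate. Ryr3 had 103 ± 11.3 CPM under saline (90.8 to 121, median 102), 96.9 ± 36.7 at the low rate (28.2 to 131, median 104) and 140 ± 53.3 at the high rate (96.2 to 226, median 116). The 3 groups overlapped, and the high-rate spread came from 2 libraries at 186 and 226 CPM. The log2 differences were -0.09 (SE 0.26, edgeR adjusted p = 0.973) and 0.45 (SE 0.26, edgeR adjusted p = 1). The lowest low-rate library, at 28.2 CPM, was GC-leaning. It also had the lowest Ryr1, Ryr2, Itpr1 and Itpr2 of its group. It had 17429 CPM of summed oligodendrocyte markers, where the other 5 had 5541 to 7981, and 543 CPM of hippocampal neuron markers, where the others had 963 to 1278. Without it the low-rate difference of Ryr3 turned positive (log2 0.11).

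The other hippocampal values were within the spread of the groups. Ryr2 had 532 ± 107, 434 ± 149 and 568 ± 181 CPM, with log2 -0.29 (SE 0.25) and 0.11 (SE 0.25). In each infusion the library with the least Ryr2 was GC-leaning, at 338, 170 and 293 CPM, and it was the same library that had the least Ryr3. Ryr1 had 78.8 ± 12.7, 60.4 ± 16.3 and 76.8 ± 15 CPM, and 4 of 6 low-rate libraries lay below every saline library (log2 -0.38, SE 0.17, edgeR adjusted p = 0.8). Itpr1 had 640 ± 98.4, 656 ± 172 and 737 ± 95.6 CPM, and Itpr2 had 47.9 ± 3.66, 50.6 ± 2.7 and 51.5 ± 7.02. Itpr3 had 7.59 ± 2.28, 8.68 ± 1.62 and 6.27 ± 2.73 CPM. Over the family the log2 differences from saline ran from -0.38 to 0.45. Between the rates the range was -0.46 to 0.54, with edgeR adjusted p-values of 1. At an unadjusted p under 0.05 the table held 817 genes at the low rate, 353 at the high rate and 384 between the rates. DESeq2 called 38 genes at the low rate, none of them a member, and 0 in the other comparisons.

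In the nucleus accumbens likewise no member was called, and edgeR called none of 13769 genes (0%). Ryr3 had 160 ± 42 CPM under saline, 150 ± 65 at the low rate (99.3 to 274, median 132) and 156 ± 70.5 at the high rate (85 to 243, median 134), with log2 -0.08 and -0.03 (SE 0.30 each). The groups overlapped nearly throughout. Ryr2 had 205 ± 13.9, 178 ± 39.7 and 184 ± 58.5 CPM, with log2 -0.21 and -0.16 (SE 0.18 each). Its saline libraries were close together, at 184 to 219 CPM, and those at the high rate spanned 103 to 260. Itpr1 had 799 ± 70.9, 965 ± 389 and 815 ± 233 CPM, and its low-rate libraries spanned 410 to 1557. Ryr1 had 50.7 ± 10.4, 54.9 ± 13.1 and 55 ± 11.3 CPM, Itpr2 48.4 ± 7.37, 47.8 ± 2.3 and 46.6 ± 4.58, and Itpr3 6.57 ± 2.84, 7.91 ± 2.31 and 7.18 ± 2.21. The log2 differences from saline ran from -0.21 to 0.28 over the family, all with edgeR adjusted p = 1. At an unadjusted p under 0.05 there were 196, 326 and 292 genes at the low rate, the high rate and between them, and DESeq2 called 0 in each.

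The difference between regions in the response was tested in a fit of all 52 libraries. No gene of 14985 (0%) was called in any of the 6 region comparisons, and 357 to 3634 genes had an unadjusted p under 0.05. The low-rate difference of Ryr2 was larger in the hypothalamus than in the hippocampus by log2 1.03 (SE 0.32, edgeR adjusted p = 0.115) and than in the accumbens by 0.94 (SE 0.32, edgeR adjusted p = 0.234). For Ryr3 the same differences were 1.37 (SE 0.38) and 1.35 (SE 0.38), given with no test because of the choice. At the high rate Ryr3 differed by 0.69 (SE 0.39) from the hippocampus and 1.16 (SE 0.39) from the accumbens. Between accumbens and hippocampus the Ryr3 response differed by 0.02 (SE 0.37, edgeR adjusted p = 1) at the low and -0.47 (SE 0.37, edgeR adjusted p = 1) at the high rate.

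**Figure D5:**
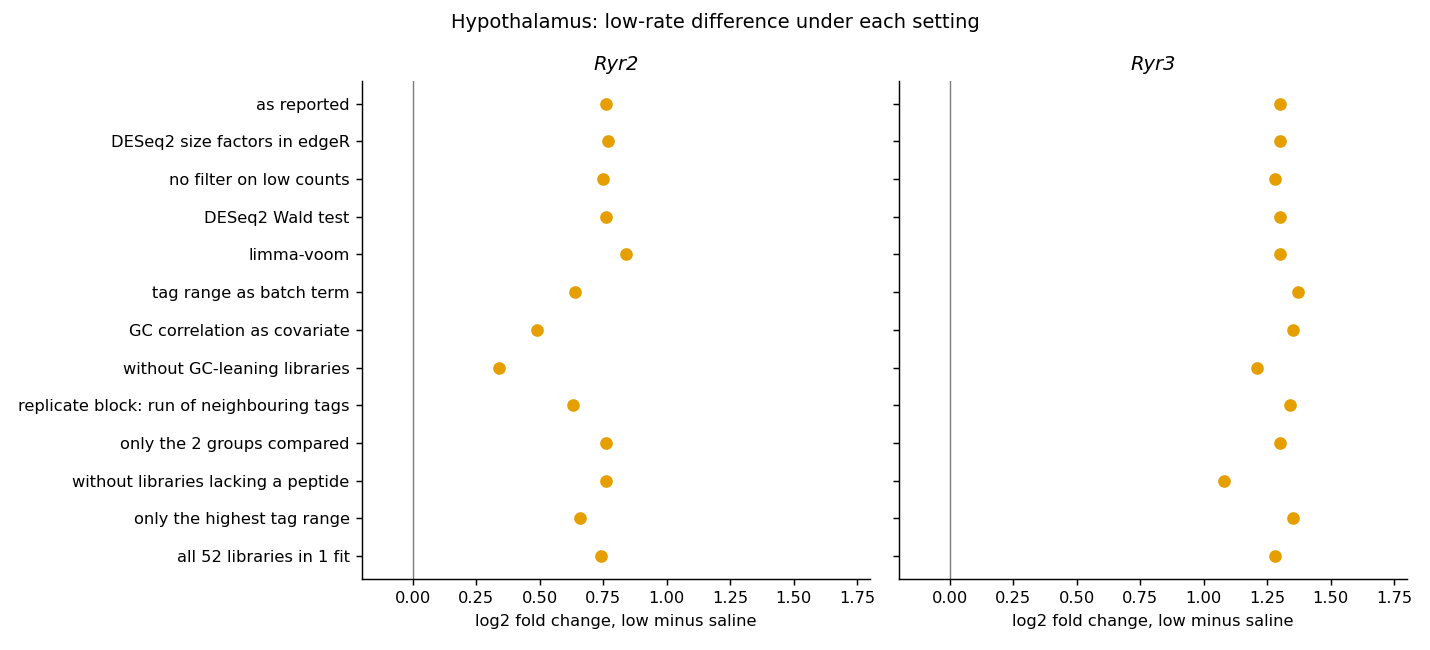
log2 fold change, low rate minus saline, of hypothalamic Ryr2 and Ryr3 (x axis) under each setting (y axis), as reported at the top. Points are single estimates with no error drawn. Ryr2 lies between 0.34 and 0.84, lowest without the GC-leaning libraries, and Ryr3 between 1.08 and 1.37. Ryr3 was picked for this difference, so its values under the settings describe the choice and carry no test.

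Over the 9 groups, the order of Ryr3 levels ran from the 3 accumbens groups (150 to 160 CPM) through the hippocampus (96.9 to 140) to the hypothalamus under insulin (87.9 and 96.4) and under saline (39.7). All neighbours in that order overlapped except the last step, from the high-rate to the saline hypothalamus, which is the step behind the choice. For Ryr1 the single gap was between the accumbens and the hypothalamus, and for Itpr1 between the hippocampus and the hypothalamus. Every neighbour overlapped for Ryr2, Itpr2 and Itpr3. How common such gaps are over all genes was not counted, so they only describe these members.

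Within groups, library-to-library variation tied some members together. After subtracting each group's mean from log2 CPM, Pearson's r over the 52 libraries was 0.69 between Ryr2 and Ryr3, 0.616 between Ryr3 and Itpr1 and 0.531 between Ryr2 and Itpr1. It was 0.006 between Ryr1 and Ryr2 and -0.085 between Itpr2 and Itpr3. The genes most like Ryr2 were Ralgapa1 (r = 0.94), Usp32 (0.932) and Zyg11b (0.926), and those most like Ryr3 were Vps13d (0.849), Zfp445 (0.827) and Cbl (0.816). Itpr1 was most like Pde10a (0.842), a phosphodiesterase of striatal projection neurons, and Nin (0.83), a centrosomal protein gene. For Itpr3 they were Pear1 (0.617), Acvrl1 (0.609) and Tie1 (0.602), the last 2 being receptors of endothelial cells. Ryr1 had Crtc1 (0.691) and Itpr2 had Zranb1 (0.638) at the top. Libraries share depth and GC lean across genes, so these values describe the libraries and are given with no p.

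Over the 9 group means, Ryr3 was most like Ankrd28 (r = 0.986), Slitrk4 (0.983) and Lekr1 (0.981). Ryr2 was most like Opcml (0.989), a neuronal adhesion protein gene, Kcnn2 (0.989), which encodes a calcium-activated potassium channel, and Nrip3 (0.988). Itpr1 was most like Dazl and Kcnq5 (0.995 each). Itpr3 was most like Hbb-bs (0.943), a haemoglobin gene of red blood cells, and Hba-a1, another, was among its 3 (0.823). The 9 points come from 3 regions and share their libraries, so these values too are a description.

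The wider pathway was followed in 11 lists around the 6 genes. Under saline 61 of 105 tested list genes (58.1%) were called between hypothalamus and hippocampus, 39 of them lower in the hypothalamus, beside 44.1% of all genes. The comparison of accumbens with hippocampus called 50 (47.6%, beside 27.9%) and that of accumbens with hypothalamus 43 (41%, beside 29%). The lists were chosen with earlier results of these data known, and no list was tested as a set.

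Proteins that hold ryanodine receptors at membrane junctions were called in all 3 comparisons of regions. In the hypothalamus against the hippocampus, 10 of 15 tested members of that list were lower and 1 was higher, with a median log2 of -0.96, where the median over all genes was 0.05. The accumbens had 10 lower and 1 higher against the hippocampus, and 5 higher and 1 lower against the hypothalamus. In the 3 comparisons 44.1%, 27.9% and 29% of all genes were called, in the order given. Jph1, a junctophilin that bridges the reticulum and the surface membrane, had 4.72 ± 1.81 CPM in the hypothalamus and 87 ± 14 in the hippocampus (18.8-fold lower, edgeR adjusted p = 4.05e-11). Homer3, a scaffold that links glutamate receptors to calcium release channels, was 15.5-fold lower (edgeR adjusted p = 3.46e-12) and Homer1 4.24-fold lower (edgeR adjusted p = 7.55e-08). Jph2, the cardiac junctophilin, was higher at 4.90 ± 1.5 CPM against 0.467 ± 0.453 (edgeR adjusted p = 6.47e-07), from a hippocampal level near 0.

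Genes of calcium-dependent kinases and of calcineurin showed the same direction, with 11 of 14 lower in the hypothalamus, 3 higher and a median log2 of -1.69. Camk2a, the alpha subunit of the synaptic calcium/calmodulin kinase, was 11.3-fold lower (edgeR adjusted p = 1.10e-10), and Ppp3ca, a catalytic subunit of calcineurin, was 6.14-fold lower (edgeR adjusted p = 1.86e-10). Camk1 was 4.03-fold higher in the hypothalamus (edgeR adjusted p = 2.77e-09). Of 5 genes of store-operated calcium entry, which refills the store, 3 were lower in the hypothalamus and 1 was higher, with a median log2 of -1.12. Stim2 and Orai2, a calcium sensor and a channel of store-operated entry, were 4.46-fold and 6.14-fold lower (edgeR adjusted p = 4.02e-11 and 2.56e-11), Orai3, another channel, was 2.17-fold lower (edgeR adjusted p = 2.22e-04), and Stim1, the other sensor, was 1.39-fold higher (edgeR adjusted p = 0.00114). Atp2a2, the main reticulum calcium pump, was 1.61-fold lower (edgeR adjusted p = 1.28e-04). Among lumenal calcium-binding proteins 3 of 8 were higher in the hypothalamus and none lower, led by Rcn1 (9.22-fold higher, edgeR adjusted p = 3.42e-11). Over all genes 22.9% were higher and 21.1% lower in this comparison.

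The genes that make and remove IP3 were split. Of 14 phospholipase C and Gq genes, 4 were higher in the hypothalamus and 3 lower. Plcb4 was 3.31-fold higher (edgeR adjusted p = 2.15e-06) and Plcb1, the form prominent in forebrain neurons, 3.42-fold lower (edgeR adjusted p = 3.24e-07). Itpka, a neuronal kinase that converts IP3, was 35.6-fold lower in the hypothalamus, at 7.39 ± 2.27 CPM against 265 ± 108 (edgeR adjusted p = 4.21e-10). Of 11 Gq-coupled receptors, 3 were higher and 4 lower: Hrh1, a histamine receptor, was 8.26-fold higher (edgeR adjusted p = 7.04e-09) and Chrm1, a muscarinic receptor, 17.8-fold lower (edgeR adjusted p = 5.06e-11). Of 13 IP3 receptor partners 3 were higher and 3 lower, and of 9 mitochondrial uptake genes 1 was higher and 1 lower. The remaining lists had 2 of 6 IP3 kinase and phosphatase genes higher and 2 lower, and 1 of 6 other release genes higher and 1 lower. These counts stand beside 44.1% of all genes called in this comparison, 22.9% higher and 21.1% lower.

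Under insulin 6 of 104 tested list genes were called in the hypothalamus at the low rate (5.77%), a share near the 5.38% of all genes. At the high rate edgeR called 0 of 104 list genes, DESeq2 called 3, and edgeR called 0 to 10 with 1 library left out. Homer2 had 64.1 ± 11.5 CPM at the low rate and 45 ± 7.33 under saline (log2 0.53, edgeR adjusted p = 0.0376), and Plch1, a phospholipase C gene of neurons, 35.8 ± 4.96 against 22.1 ± 7.33 (log2 0.73, edgeR adjusted p = 0.0295). Adra1a, an adrenergic receptor coupled to Gq, had 10.8 ± 2.85 against 4.73 ± 2.9 CPM (log2 1.29, edgeR adjusted p = 0.0419), and Camk2d 308 ± 19.9 against 221 ± 59 (log2 0.50, edgeR adjusted p = 0.0456). Another 2 genes were lower at the low rate: Jph4, a brain junctophilin, with 152 ± 19.5 against 207 ± 21.6 CPM (log2 -0.43, edgeR adjusted p = 0.0358), and Camk2b with 382 ± 38.6 against 525 ± 83.6 (log2 -0.44, edgeR adjusted p = 0.0379). None of the 6 was called without the GC-leaning libraries, where the log2 values were 0.29, 0.38, 0.94, 0.12, -0.31 and -0.23 in the order given, nor with the tag range or the GC correlation as a term. In the hippocampus and the accumbens edgeR called 0 list genes at either rate.

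Some exons of the family overlap genes on the opposite strand. The kit marks strand, but whether featureCounts was run with strand is not given in the sources used here, so reads of such partners may not have been told apart. Aven, which encodes an apoptosis and cell cycle regulator, shares 916 exon bases with Ryr3 on the other strand. It had 4.66 ± 0.878 CPM in the saline hypothalamus, 5.04 ± 1.85 at the low rate and 3.78 ± 0.705 at the high rate, against 39.7, 96.4 and 87.9 CPM of Ryr3. Its log2 differences from saline were 0.11 (SE 0.24, edgeR adjusted p = 0.787) and -0.31 (SE 0.26, edgeR adjusted p = 0.441). Gm26604, which shares 864 exon bases with Ryr1, had at most 1.51 CPM in any library, and Itpr3os, opposite Itpr3, was at 0 counts in all 52.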

How the data were processed

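Total RNA from the 52 libraries was made into directional libraries and sequenced as paired reads of 50 bases. The authors deposited whole-number read counts per gene for 46071 Ensembl genes. Per the submitters' processing notes the tools were STAR and featureCounts and the build GRCm38.p4, while their versions, use of strand and gene annotation were not given in the sources used here. Of the gene identifiers, 45229 matched GENCODE, which gave symbols, coordinates and lengths, and 842 did not.

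Counts were tested in R 4.3.3 with the quasi-likelihood test of edgeR 4.0.16 (TMM normalization, its filter on low counts, 2-sided, Benjamini-Hochberg adjustment over all genes, called under 0.05). Each region was fitted alone over its 3 infusions, regions were compared on saline libraries, and differences between responses came from a fit of all 52. CPM levels use TMM factors over all 52 libraries, so their ratios differ slightly from the fitted values. Totals had a median of 4654641.5 counts, and 125 pairs of libraries of 1 group all differed by more than sampling noise. Replicate numbers were given in accession order and were not used to pair libraries. Within the hippocampus and within the accumbens they coincide with the runs of neighbouring tags across the 3 infusions, and replicate 1 of all 6 of those groups was GC-leaning, so the tag run was tried as a block.

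The members and lists were chosen with earlier results of these data known. The text names the 6 members, the 3 genes most like each among 11326 with a mean of at least 5 CPM, and, per list, up to 4 called genes by fold change or 2 by p where none was called, of which a part is printed. Of 193 list entries 191 matched. Alternatives were other size factors, no filter, DESeq2 1.42.0, limma 3.58.1, a threshold of 0.1, terms for tag range, tag run and GC, fewer groups or libraries, and leaving out each library. The fit in the highest tag range alone was chosen after seeing the data.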

Additional observations from a re-analysis of the deposited data

Results flagged for a closer look

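Of 54 groups of libraries (6 genes in 9 groups), 4 held a library that stood apart from the others of its group by Dixon's criterion. Chance gives about 1 in 20 groups. In the hippocampus at the low rate, library 5 had 28.2 CPM of Ryr3, where the others had 92.7 to 131. The same library was GC-leaning and had 17429 CPM of oligodendrocyte markers, where the others had 5541 to 7981, and the part of these in the Ryr3 value was not tested. In the accumbens at the low rate, library 2 had 274 CPM of Ryr3, where the others had 99.3 to 155. It also had the most Itpr1 of its group, 1557 CPM. Itpr3 was high in hippocampal low-rate library 6, at 11.9 CPM against 7.6 to 8.42, and that library had the most choroid plexus marker transcripts of any (6168 CPM). Itpr3 was also high in hippocampal high-rate library 1, at 11.7 CPM against 4.19 to 5.74, a GC-leaning library.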

How the results depend on the processing

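The number of members called in the hypothalamus at the low rate (1, Ryr2) was 0 with the tag range, the GC correlation or the replicate block (run of neighbouring tags) as a term, without the GC-leaning libraries, without libraries lacking a peptide, with only the 2 groups compared and in the highest tag range alone. It was 0 to 2 when 1 library was left out. At the high rate it was 1 with DESeq2 and 0 to 2 with a library left out, where edgeR gave 0. The block was the tag run, with which the replicate numbers coincide within the hippocampus and within the accumbens, but not in the hypothalamus. Of the pathway lists, 6 genes were called at the low rate, 19 at a threshold of 0.1, 1 with no filter, 13 with DESeq2, 10 with limma, 2 in the fit of 52 libraries, 0 under the 7 settings named first, and 0 to 21 with a library left out. At the high rate these were 0, 3 with DESeq2 and 0 to 10 with a library left out. Between accumbens and hypothalamus they were 43, 16 in the highest tag range and 25 without GC-leaning libraries. Over all genes the 760 calls at the low rate became 2334 at 0.1, 1678 with DESeq2, 29 with the tag range, 22 with GC, 3 without GC-leaning libraries, 16 with the block and 0 in the highest range. The 26 at the high rate became 199, 359, 5, 4, 1, 0 and 0 in that order.

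The signs that turned belonged to reported log2 values between -0.14 and 0.08, and the cause was not tested. Itpr3 at the low rate in the hypothalamus was -0.07 with the tag range, -0.04 without GC-leaning libraries, -0.11 with the block and -0.16 in the highest range. Ryr1 at the high rate was 0.22, 0.19, 0.27 and 0.49 in that order. Itpr3 between hypothalamus and hippocampus was -0.00042 with DESeq2 size factors, -0.001 with DESeq2, -0.13 with the tag range, -0.07 with GC and -0.33 in the highest range. Ryr3 was 0.13 in the hippocampus at the low rate without GC-leaning libraries, 0.03 (GC), 0.13 (without GC-leaning libraries) and 0.1 (highest range) in the accumbens at the high rate, and 0.03 between the rates in the hypothalamus in the highest range. With 1 library left out, ranges that crossed 0 were -0.1 to 0.18 for hypothalamic Itpr3 at the low rate, -0.29 to 0.02 for Ryr1 at the high rate, -0.0043 to 0.11 (Itpr2) and -0.11 to 0.09 (Itpr3) between hypothalamus and hippocampus, -0.03 to 0.06 for Itpr2 between accumbens and hippocampus, -0.1 to 0.0005 for Itpr2 between accumbens and hypothalamus, and for Ryr3 -0.19 to 0.11 (hippocampus, low), -0.35 to 0.02 (accumbens, low) and -0.19 to 0.09 (accumbens, high). Depth limits Itpr3 most, with 16 to 65 counts per library.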
